A study of Mus musculus with 26 samples.

Results

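The transcripts of insulin-like growth factor 1 and of its binding proteins were followed in brown preadipocytes whose own insulin receptor gene was deleted, without or with an intact or mutated human receptor. The members were the 7 mouse genes *Igf1*, *Igfbp2*, *Igfbp3*, *Igfbp4*, *Igfbp5*, *Igfbp6*, and *Igfbp7*, taken by symbol out of 52962 genes in the count table. Of these, *Igf1*, *Igfbp4*, *Igfbp6*, and *Igfbp7* were among the 15402 genes abundant enough to be tested, that is, with more than 0.5 CPM (counts scaled to the library total) in at least 4 libraries. *Igfbp2*, *Igfbp3*, and *Igfbp5* did not reach that level in any library.

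All cells descended from brown preadipocytes of newborn mice with lox-flanked alleles of both the insulin receptor (IR) and the IGF1 receptor (IGF1R), immortalized with SV40 T-antigen. Cre recombinase, given by adenovirus, had been used to make the double knockout (DKO) cells, which are the control group. Retroviruses then brought human receptors into DKO cells to give 4 lines: IR (B isoform), K1030R (kinase-dead), ∆CT (without the last 79 residues), and JMO (truncated so that only 36 juxtamembrane residues remain inside the cell). The methods of the study also list an empty retroviral vector. Whether the sequenced DKO cells carried it is not given in the sources used here. Each receptor form was studied in 1 transduced line, so that the libraries measured the spread between samples of a line, and differences between independently made lines cannot be told apart from differences between receptors. Cells were starved of serum for 6 h, and IR, K1030R, ∆CT, and JMO cells were collected without insulin (basal) or with 100 nM insulin for 15 min, whereas DKO cells were collected in the basal state only. There were 26 libraries in 9 groups, 3 per group and 2 for ∆CT with insulin.

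As background, IGF1 is a secreted growth factor that activates IGF1R and, less strongly, IR. The IGF binding proteins are secreted proteins that hold IGF1 and IGF2 outside the cell, prolong their life in the circulation, and in tissues either block or hand over the growth factors to receptors. Proteases outside the cell cut the binding proteins and set the IGFs free. In preadipocytes, IGF1 and insulin both promote growth and differentiation into adipocytes, and cells of the stromal lineage make many of the binding proteins themselves.

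In the basal state, *Igf1* and *Igfbp4* were higher, and *Igfbp7* was lower, in IR, K1030R, and ∆CT cells than in DKO cells. JMO cells, whose receptor lacks most of its intracellular part, were close to DKO cells for *Igfbp4* and *Igfbp7* and lay between DKO and the other lines for *Igf1*. *Igfbp6* stayed within a narrow range in all 9 groups. The 2 binding protein genes that moved in opposite directions, *Igfbp4* and *Igfbp7*, are shown here by the 250 bases before their starts of transcription, which are the part of the genes nearest to where transcription begins. The sequences are RefSeq promoter windows on GRCm38.p6, printed in the direction of the gene. Capitals mark the TATA box (TATAAA) in *Igfbp4* (chr11:99040994-99041243, plus strand) and GC boxes (GGGCGG, or its reverse complement) in *Igfbp7* (chr5:77408046-77408295, minus strand).
Igfbp4: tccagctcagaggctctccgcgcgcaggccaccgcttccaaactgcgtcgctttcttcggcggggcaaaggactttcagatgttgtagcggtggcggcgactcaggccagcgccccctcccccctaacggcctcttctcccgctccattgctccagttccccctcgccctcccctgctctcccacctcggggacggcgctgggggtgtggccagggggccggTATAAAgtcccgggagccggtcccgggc
Igfbp7: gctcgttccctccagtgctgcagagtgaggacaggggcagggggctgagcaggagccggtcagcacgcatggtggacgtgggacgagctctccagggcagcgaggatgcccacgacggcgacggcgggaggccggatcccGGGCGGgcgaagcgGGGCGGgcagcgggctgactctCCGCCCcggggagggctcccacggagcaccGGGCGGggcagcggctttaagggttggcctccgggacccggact

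The *Igfbp4* window held 1 TATA box, whose first base lay 28 bases before the start, and no GC box. The *Igfbp7* window held 4 GC boxes, at 110, 96, 74, and 44 bases before the start, and no TATA box. A TATA box was found in 12.4% and a GC box in 32.7% of 32851 mouse promoter windows of the same length, searched on both strands, and the bases G and C made up 69.2% of the *Igfbp4* and 74% of the *Igfbp7* window, against a median of 52.4%. The core bound by FOXO factors (GTAAACA), found in 3.17% of all windows, matched in none of the windows of the 7 genes. The AP-1 site (TGACTCA, 4.46%) matched in 1 of the 2 windows of *Igfbp2*, which lies inside the annotated gene and overlaps an exon. The E-box (CACGTG, 6.02%) matched in the other one, which also held GC boxes at 113, 98, and 37 bases before its end. The *Igfbp5* window overlaps an exon of *Igfbp5*. Distances are to the RefSeq start at the end of each window. For *Igfbp6* the window ends before the annotated gene begins, and it held a TATA box on the opposite strand, 148 bases before that end. For *Igf1*, which has several starts, the window lies inside the annotated gene and overlaps an exon. It held none of these letters, and the sequence before the first start of the gene was not searched. These matches describe the letters only.

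Library totals ran from 17228982 to 24694828 counts, and the biological coefficient of variation between libraries of a group was 4.44%. CPM here are scaled with TMM factors, which ran from 0.966 to 1.05. Of 8 stromal markers, 7, among them *Pdgfra* and *Pdgfrb*, were above 1 CPM in every library, and of 5 brown fat lineage markers *Zic1* and *Ppargc1a* were, while *Ucp1*, *Prdm16*, and *Ebf2* stayed below 1 CPM in every library. The summed level of the 8 stromal markers was 5483 to 5751 CPM for DKO and 5614 to 5962 for JMO libraries, against 8834 to 10418 for IR, 8584 to 8898 for K1030R, and 8591 to 9303 for ∆CT libraries, and its part in the results was not tested. Most of the gap in this sum was *Col1a1*, a collagen, with means over all libraries of a line of 3264 CPM for DKO and 3736 for JMO against 6890 for IR, 6087 for K1030R, and 6229 for ∆CT cells. From DKO to IR, *Pdgfra* (164 against 279), *Cd34* (3.45 against 12.3), *Thy1* (6.62 against 20.8), and *Vim* (1488 against 1750) ran the same way as *Col1a1*. *Ly6a*, with 44.9 for DKO against 4.21 for IR, and *Pdgfrb*, with 630 against 549, ran the other way. *Dlk1* was at most 0.103 CPM in any library. Of other cell types, macrophages also make *Igf1*: their marker *Adgre1* had 0 counts in all 26 libraries, and *Ptprc* was at most 0.399 CPM. *Cd68* in the macrophage list, *Pecam1* in the endothelial list, and *Acta2* in the smooth muscle list were above 1 CPM in every library. Of 5 mature adipocyte markers, *Lep* and *Cidec* had 0 counts, *Adipoq* and *Plin1* were at most 0.0514 and 0.296 CPM, and *Fabp4* had a mean of 4.34 CPM for JMO, 2.48 for DKO, 1.32 for K1030R, 0.886 for ∆CT, and 0.671 for IR libraries. In bulk RNA, fewer cells of a type and less RNA per cell cannot be told apart.

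**Figure D1:**
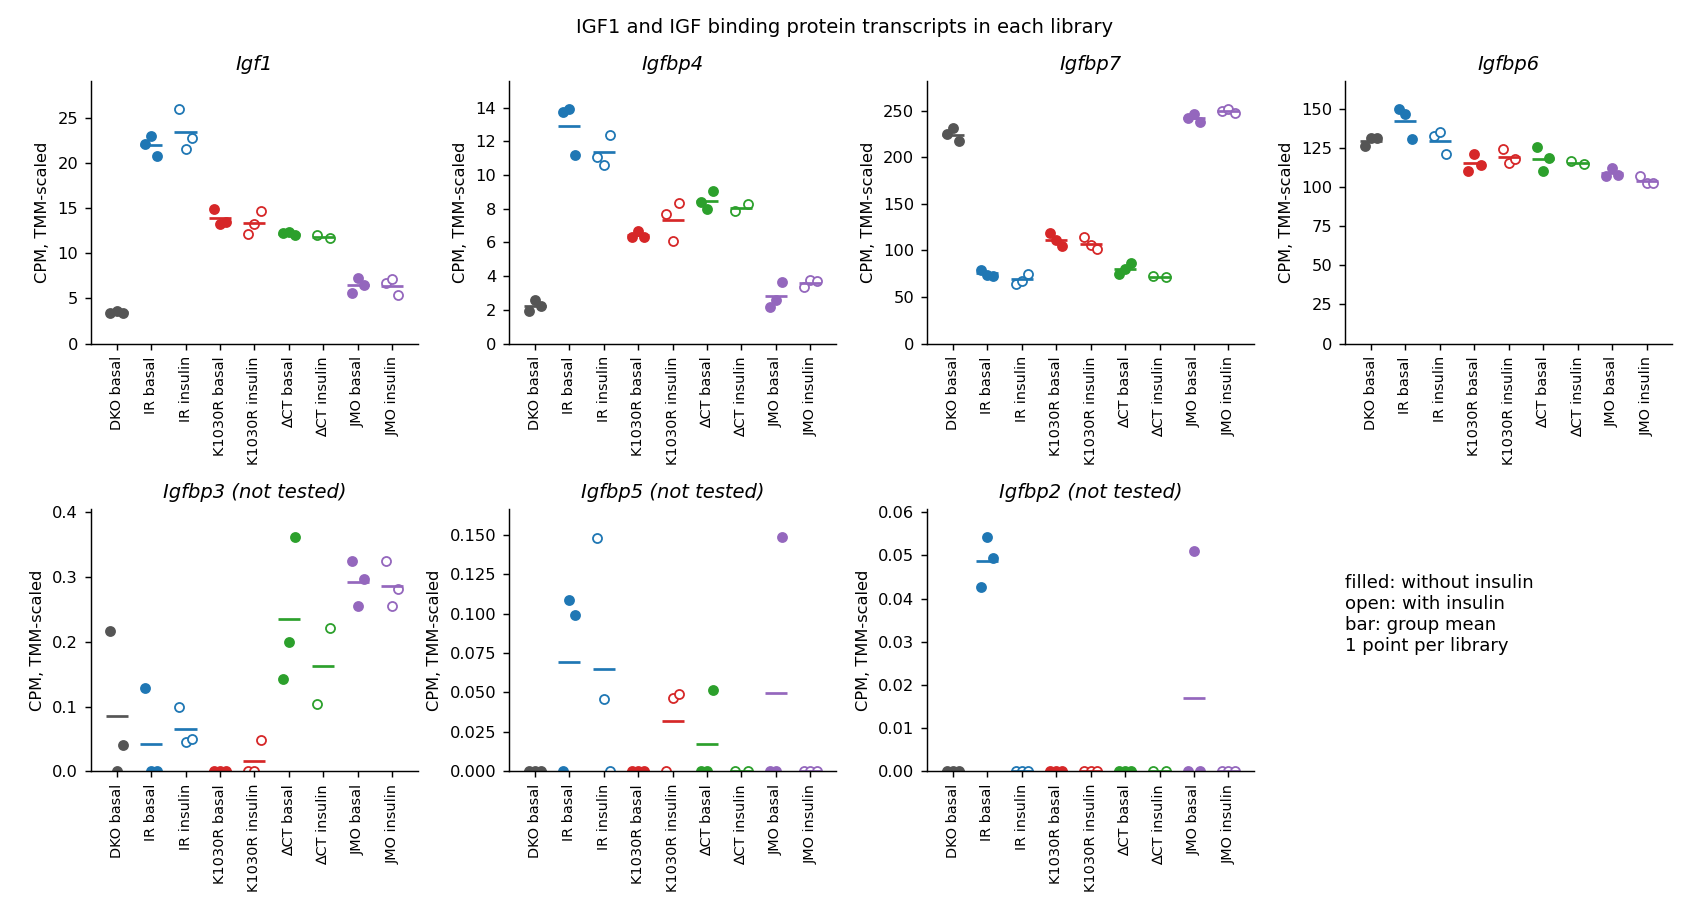
TMM-scaled CPM (vertical axes from 0, each with its own scale) of the 7 genes in each of the 26 libraries, by group along the horizontal axis, with filled points for libraries without insulin, open points with insulin, and bars for group means. *Igf1* and *Igfbp4* are highest in IR libraries, *Igfbp7* is highest in JMO and DKO libraries, *Igfbp6* lies between 102 and 150 in all libraries, and the 3 other genes stay at or below 0.362 CPM.

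The first question was whether the transcripts of each receptor line differed from those of DKO cells. A gene was called where edgeR's minimum-fold test (glmTreat, 1.5-fold) gave a Benjamini-Hochberg adjusted p below 0.05 over the 15402 genes. Against DKO, 3 of the 4 tested genes were called for IR cells, where 6.89% of all tested genes were called, 3 for K1030R (5.29% of all), 3 for ∆CT (6.29%), and 0 for JMO cells (2.11%). In JMO cells, 3 of 4 had an unadjusted p under 0.05, and 1 of 4 was higher and 1 lower with edgeR's quasi-likelihood test and no minimum fold, which was passed by 34.3% of all genes, and DESeq2 and limma also called 0 at 1.5-fold. All adjusted p below without another name are from that quasi-likelihood test.

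*Igf1* (ENSMUSG00000020053, chr10:87858265-87937042 on GRCm38, plus strand), the growth factor itself, had CPM of 3.42, 3.58, and 3.40 in the 3 DKO libraries. IR libraries had 22.1, 23.0, and 20.7, K1030R libraries 14.9, 13.2, and 13.4, and ∆CT libraries 12.2, 12.3, and 12.0. JMO libraries had 5.61, 7.30, and 6.49. Thus every receptor library was above every DKO library, IR libraries were above all others, and JMO libraries lay below those of the other 3 receptors without overlap. Group means ± SD (n = 3) were 3.47 ± 0.0968 for DKO, 21.9 ± 1.15 for IR, 13.8 ± 0.892 for K1030R, 12.2 ± 0.178 for ∆CT, and 6.47 ± 0.843 for JMO cells.

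*Igf1* was 6.32-fold higher in IR than in DKO cells (log2 fold change 2.66 ± 0.11 SE, edgeR adjusted p = 4.64e-21). It was 3.98-fold higher in K1030R (1.99 ± 0.11, edgeR adjusted p = 1.26e-16) and 3.51-fold higher in ∆CT cells (1.81 ± 0.11, edgeR adjusted p = 1.65e-15). In JMO cells *Igf1* was 1.85-fold higher than in DKO (0.89 ± 0.12, edgeR adjusted p = 4.81e-07), a difference larger than the spread between libraries that did not pass the 1.5-fold test (adjusted p = 0.0875). Without JMO basal replicate 1, the library with the lowest *Igf1* of that group, it passed (log2 fold change 0.99, minimum-fold adjusted p = 0.0232). The gene overlaps *Igf1os* on the annotation. Reads were stranded, but whether strand was used in the assignment is not given in the sources used here, and reads of overlapping transcripts may be shared.

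Among the binding proteins, *Igfbp4* (ENSMUSG00000017493, chr11:99041244-99054392, plus strand) encodes a protein known mostly as an inhibitor of IGF action at the cell, which the protease PAPP-A cuts. Its CPM in DKO libraries were 1.96, 2.56, and 2.24, and in JMO libraries 2.2, 2.60, and 3.67. IR libraries had 13.7, 13.9, and 11.2, K1030R libraries 6.33, 6.69, and 6.31, and ∆CT libraries 8.39, 7.99, and 9.06. DKO and JMO libraries overlapped, and every one of them was below every library of IR, K1030R, and ∆CT cells. Relative to DKO, *Igfbp4* was 5.74-fold higher in IR cells (log2 fold change 2.52 ± 0.14 SE, edgeR adjusted p = 6.52e-17), 2.86-fold in K1030R (1.52 ± 0.15, edgeR adjusted p = 4.06e-10), and 3.76-fold in ∆CT cells (1.91 ± 0.15, edgeR adjusted p = 4.38e-13). For JMO cells the log2 difference was 0.31 ± 0.17, which did not pass (edgeR adjusted p = 0.169), although without JMO basal replicate 1 it was 0.48 with an adjusted p of 0.0399.

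*Igfbp7* (ENSMUSG00000036256, chr5:77349240-77408041, minus strand) encodes a secreted protein that binds IGFs with low affinity and is found in the matrix around cells. It had CPM of 225, 231, and 217 in DKO libraries and 242, 247, and 238 in JMO libraries. IR libraries had 79.1, 74.0, and 72.5, ∆CT libraries 75, 79.9, and 86.5, and K1030R libraries 118, 111, and 105. The libraries of DKO and JMO cells were thus above all others, K1030R libraries came next, and IR and ∆CT libraries overlapped at the bottom. Relative to DKO, *Igfbp7* was 2.98-fold lower in IR cells (log2 fold change -1.57 ± 0.05 SE, edgeR adjusted p = 4.43e-20), 2.01-fold lower in K1030R (-1.01 ± 0.05, edgeR adjusted p = 1.08e-15), and 2.79-fold lower in ∆CT cells (-1.48 ± 0.05, edgeR adjusted p = 1.91e-19). In JMO cells the log2 difference was 0.11 ± 0.05 and did not pass (edgeR adjusted p = 0.0741), although it did in a model of the DKO and JMO libraries alone (adjusted p = 0.00767), without IR insulin replicate 3 (0.0452), and without ∆CT basal replicate 3 (0.0447). The gene overlaps *Polr2b* and *Gm34648* on the annotation.

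*Igfbp6* (ENSMUSG00000023046, chr15:102144362-102149511, plus strand), whose protein prefers IGF2 to IGF1, was at 126 to 131 CPM for DKO, 131 to 150 for IR, 111 to 121 for K1030R, 110 to 126 for ∆CT, and 107 to 112 for JMO basal libraries. All K1030R, ∆CT, and JMO basal libraries lay below those of DKO cells, and IR libraries overlapped with DKO. The log2 differences from DKO were 0.14 ± 0.05 SE for IR, -0.17 ± 0.05 for K1030R, -0.13 ± 0.05 for ∆CT, and -0.25 ± 0.05 for JMO cells. None was called at 1.5-fold, while all 4 passed edgeR's quasi-likelihood test (adjusted p = 0.0184, 0.00621, 0.0243, and 0.000148), which 49.8%, 41.6%, 46.3%, and 34.3% of all genes passed. The differences in IR and ∆CT cells no longer passed when a single one of several libraries was left out: adjusted p of the first was 0.0787 without DKO replicate 1, 0.129 without IR basal replicate 1, and 0.0797 without IR basal replicate 2, and of the second 0.0685 without DKO replicate 2, 0.0766 without DKO replicate 3, 0.173 without ∆CT basal replicate 2, and 0.053 without ∆CT basal replicate 3.

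**Figure D2:**
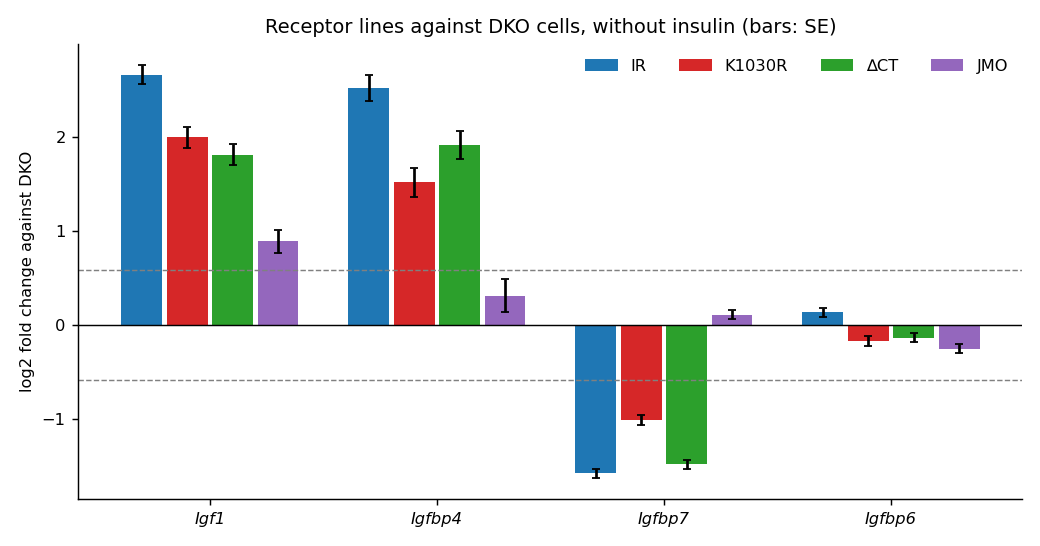
Log2 fold change against DKO (vertical axis) of the 4 tested genes in each receptor line without insulin, with bars for the fitted value, whiskers for its SE, and dashed lines at 1.5-fold. *Igf1* and *Igfbp4* rise to 2.66 and 2.52 in IR cells, *Igfbp7* falls to -1.57, and the JMO bars for *Igfbp4* and *Igfbp7* are at 0.31 and 0.11.

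*Igfbp2*, *Igfbp3*, and *Igfbp5* were at the limit of detection. *Igfbp2* (chr1:72824503-72852474, plus strand) had 4 counts in 26 libraries, never more than 1 per library, of which 3 were in the IR basal libraries. *Igfbp5* (chr1:72857932-72874884, minus strand), whose protein binds the extracellular matrix, had 14 counts in 8 libraries, with a highest value of 0.149 CPM. These neighbouring genes face each other 5457 bases apart with 0 genes between them. With 0 counts in the DKO libraries, levels of up to 0.0492 CPM (3 counts over the group) are allowed for both genes, for counting error only.

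*Igfbp3* (chr11:7206086-7213923, minus strand), whose protein is the main IGF carrier of blood, had 70 counts in 18 libraries. JMO cells had 19 counts over 3 basal libraries and 17 over 3 with insulin, and ∆CT cells had 14 over 3 basal and 7 over 2 insulin libraries. DKO cells had 5 counts, IR cells 3 basal and 4 with insulin, and K1030R cells 0 basal and 1 with insulin. Every JMO library had 5 to 8 counts, and DKO libraries had 0 to 4. Per total count, JMO basal cells were 3.6 times DKO cells (exact 95% counting interval 1.3 to 12.3), 6.11 times IR cells (1.8 to 32.2), and 1.27 times ∆CT cells (0.606 to 2.75). Over K1030R cells, with 0 counts, the exact lower limit was 4.07, and the ratio against a floor of 3 counts over the group was 5.52. These intervals cover counting error and not the spread between libraries. Without the filter on low counts, edgeR's 1.5-fold test called *Igfbp3* higher in JMO than in K1030R cells, both basal (adjusted p = 0.00392) and with insulin (0.0361), and it called the gene in no other comparison made here.

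The next question was whether these levels differed between the 4 receptor lines, which were compared in 6 pairs. The receptors of these lines differ in the kinase, the C-terminus, or the intracellular part. With 1 line per receptor form, the pairs cannot tell a part of the receptor from a difference between lines. JMO cells differed from each of the other lines in *Igf1*, *Igfbp4*, and *Igfbp7*, so that 3 of the 4 tested genes were called against IR (4.59% of all tested genes), 3 against K1030R (3.64%), and 3 against ∆CT (4.5%). *Igf1* was 3.41-fold lower in JMO than in IR cells (log2 fold change -1.77 ± 0.09 SE, edgeR adjusted p = 3.15e-17), 2.15-fold lower than in K1030R, and 1.89-fold lower than in ∆CT. The call against ∆CT was lost with DESeq2 (minimum-fold adjusted p = 0.151), with limma (0.0545), and in edgeR without JMO basal replicate 1 (0.113). *Igfbp4* was 4.62-fold lower in JMO than in IR cells (-2.21 ± 0.13, edgeR adjusted p = 9.87e-16), 2.31-fold lower than in K1030R, and 3.03-fold lower than in ∆CT. *Igfbp7* was 3.21-fold higher in JMO than in IR cells (1.68 ± 0.05, edgeR adjusted p = 1.4e-20), 2.17-fold higher than in K1030R, and 3.01-fold higher than in ∆CT.

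K1030R and ∆CT cells were between JMO and IR cells in *Igf1* and *Igfbp4*. In *Igf1*, the kinase-dead line was 1.59-fold lower than IR (log2 fold change -0.67 ± 0.09 SE, edgeR adjusted p = 2.05e-07) and ∆CT was 1.8-fold lower (-0.85 ± 0.09, edgeR adjusted p = 3.47e-09). In *Igfbp4*, K1030R was 2-fold lower than IR (-1.0 ± 0.12, edgeR adjusted p = 4.96e-08) and ∆CT was 1.52-fold lower (-0.61 ± 0.11, edgeR adjusted p = 0.000108). Of these, *Igfbp4* in K1030R against IR was called at 1.5-fold (minimum-fold adjusted p = 0.016), in a comparison with 1.04% of all tested genes called. That call was lost with DESeq2 (0.446), with limma (0.121), and in edgeR without IR basal replicate 1 (0.103) or 2 (0.104) or K1030R basal replicate 1 (0.0746) or 3 (0.0841). *Igf1* in ∆CT against IR just missed the call (minimum-fold adjusted p = 0.0588; 0.708% of all called), and it passed without the filter on low counts (0.0404) and without IR basal replicate 3 (0.0493), IR insulin replicate 1 (0.0495), or JMO basal replicate 2 (0.0498).

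*Igfbp7* separated the mutants in another way. ∆CT and IR cells did not differ beyond the spread (log2 difference 0.09 ± 0.05 SE, edgeR adjusted p = 0.217), whereas K1030R cells were 1.48-fold above IR (0.57 ± 0.05, edgeR adjusted p = 3.15e-09) and ∆CT cells were 1.39-fold below K1030R (-0.47 ± 0.05, edgeR adjusted p = 1.09e-06). Neither was called at 1.5-fold. For *Igf1*, ∆CT and K1030R cells differed by -0.18 ± 0.09 (edgeR adjusted p = 0.331), and for *Igfbp4* by 0.39 ± 0.13 (edgeR adjusted p = 0.0777, and 0.0458 without JMO basal replicate 3), and 0.039% of all genes were called between these lines. *Igfbp6* was called in 0 of the 6 pairs at 1.5-fold, by edgeR, DESeq2, and limma alike, and had an unadjusted p under 0.05 in 4. With no minimum fold, at which 30.2%, 26.1%, and 42.4% of all genes passed in K1030R, ∆CT, and JMO against IR, *Igfbp6* was lower than in IR in K1030R (-0.30 ± 0.05, edgeR adjusted p = 1.32e-05), in the ∆CT line (-0.27 ± 0.05, edgeR adjusted p = 7.71e-05), and in JMO cells (-0.39 ± 0.05, edgeR adjusted p = 9.96e-08).

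The insulin-treated samples gave a second set of libraries of the same 4 lines. With insulin, *Igf1* had CPM of 25.9, 21.5, and 22.8 for IR, 12.1, 13.2, and 14.7 for K1030R, 12.0 and 11.7 for ∆CT, and 6.68, 7.09, and 5.34 for JMO libraries. *Igfbp4* had 11.1, 10.6, and 12.4 for IR, 7.66, 6.08, and 8.34 for K1030R, 7.85 and 8.25 for ∆CT, and 3.34, 3.78, and 3.71 for JMO libraries. *Igfbp7* had 64.4, 67.6, and 74.6 for IR, 115, 106, and 102 for K1030R, 72.3 and 71.5 for ∆CT, and 249, 252, and 248 for JMO libraries. As without insulin, JMO libraries overlapped none of the others in these 3 genes. JMO cells were again called against IR (4.67% of all genes), K1030R (3.9%), and ∆CT (4.27%) in all 3 genes, with log2 fold changes against IR of -1.87 ± 0.09 SE for *Igf1*, -1.65 ± 0.13 for *Igfbp4*, and 1.86 ± 0.05 for *Igfbp7*.

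The smaller differences shifted across the threshold between the 2 sets of libraries. *Igfbp4* in K1030R against IR was -0.63 ± 0.12 SE with insulin (edgeR adjusted p = 7.29e-05). It was not called at 1.5-fold (1.25% of all genes called). *Igf1* in ∆CT against IR was -0.98 ± 0.10 (edgeR adjusted p = 4.61e-09). It was called (minimum-fold adjusted p = 0.00596), with 0.656% of all genes called. This last call was lost with DESeq2 (0.178) and in edgeR without IR insulin replicate 1 (0.0671) or ∆CT insulin replicate 1 (0.0994) or 2 (0.128). *Igf1* in K1030R against IR was -0.81 ± 0.08 (edgeR adjusted p = 2.75e-09). It was not called (minimum-fold adjusted p = 0.0905) except without IR insulin replicate 2 (0.04) or K1030R insulin replicate 3 (0.0358). Other calls of JMO with insulin were also lost: *Igf1* against ∆CT with DESeq2 (0.524), limma (0.24), and in edgeR without ∆CT insulin replicate 1 (0.144) or 2 (0.0927) or JMO insulin replicate 3 (0.208), and *Igfbp4* against K1030R with DESeq2 (0.203), limma (0.152), and in edgeR without K1030R insulin replicate 3 (0.0948) or JMO insulin replicate 1 (0.0712). Between ∆CT and K1030R with insulin, 0 of the 4 genes were called by edgeR, DESeq2, or limma at 1.5-fold (0.188% of all genes by edgeR). Only 1, *Igfbp7*, had an unadjusted p under 0.05. As without insulin, it was lower in ∆CT than in K1030R cells (-0.58 ± 0.06 SE, edgeR adjusted p = 9.68e-08).

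**Figure D3:**
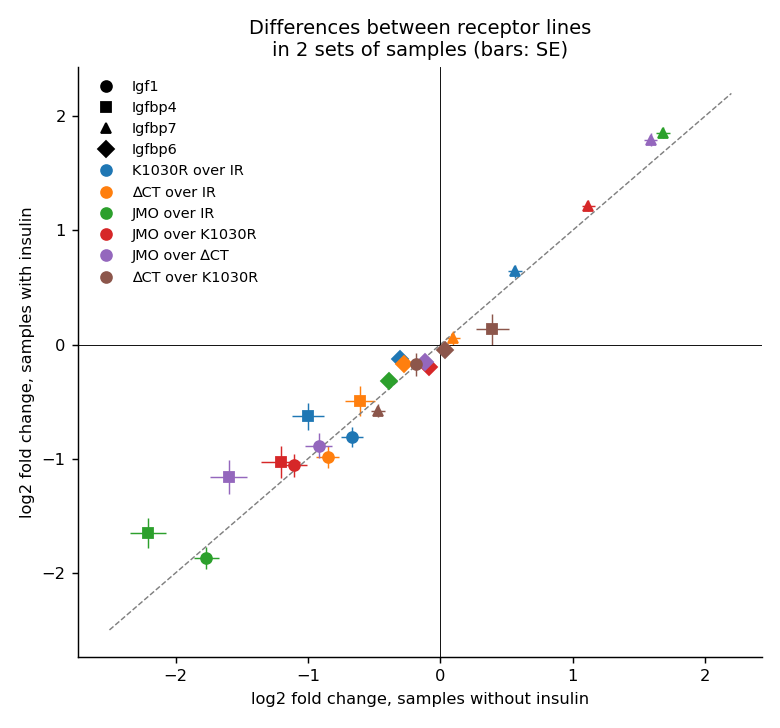
Log2 fold change of 1 receptor line over another in samples without insulin (horizontal axis) and in samples with insulin (vertical axis), for 6 pairs of lines (colours) and the 4 tested genes (shapes), with SE as whiskers and a dashed line where both are equal. *Igfbp7* in JMO over IR lies at 1.68 and 1.86, and *Igfbp4* in JMO over IR at -2.21 and -1.65.

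Insulin for 15 min was compared with the basal state within each line. None of the 16 values (4 genes in 4 lines) was called by edgeR, DESeq2, or limma at 1.5-fold, with 0.221% of all tested genes called for IR, 0% for K1030R, 0.214% for ∆CT, and 0.039% for JMO cells. Among the 16, 4 had an unadjusted p under 0.05 in edgeR's quasi-likelihood test: *Igfbp6* (log2 fold change -0.13 ± 0.05 SE) and *Igfbp7* (-0.13 ± 0.05) in IR, *Igfbp7* in ∆CT (-0.16 ± 0.06), and *Igfbp4* in JMO cells (0.37 ± 0.16). The lowest adjusted p was 0.153, that of *Igfbp6* in IR cells, which became 0.0334 without the filter on low counts and 0.00975 without IR basal replicate 3. For *Igf1* the insulin effects were 0.09 ± 0.08 for IR, -0.05 ± 0.09 for K1030R, -0.04 ± 0.10 for ∆CT, and -0.01 ± 0.11 for JMO cells.

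Whether insulin acted differently in a mutant than in IR cells was tested as a difference of effects in the same model. None of the 12 differences was called, with 0.123% of all genes called for K1030R, 0% for ∆CT, and 0.117% for JMO cells, and 4 of the 12 had an unadjusted p under 0.05. The furthest from 0 was *Igfbp4* in JMO cells, whose effect exceeded that in IR by 0.55 ± 0.19 SE (edgeR adjusted p = 0.537). The other 3 were *Igfbp4* (0.38 ± 0.17) and *Igfbp6* (0.18 ± 0.07) in K1030R and *Igfbp7* (0.17 ± 0.07) in JMO cells. DESeq2 and limma also called 0 of the 12 at 1.5-fold.

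**Figure D4:**
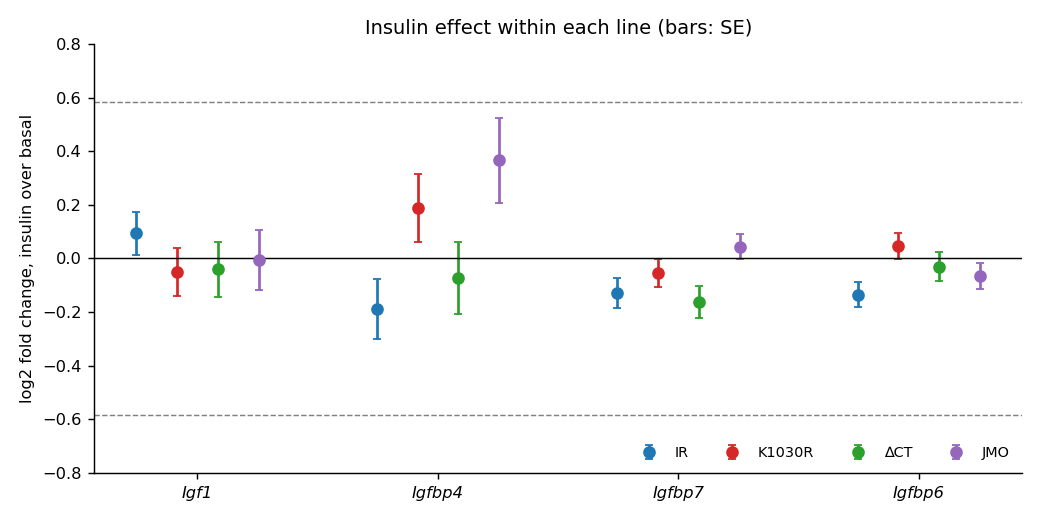
Log2 fold change of insulin over basal (vertical axis) for the 4 tested genes in IR, K1030R, ∆CT, and JMO cells, with points for the fitted value, whiskers for its SE, and dashed lines at 1.5-fold. All 16 points lie between -0.19 and 0.37, inside the dashed lines.

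Ordered by group means, *Igf1* ran from IR with insulin (23.4 CPM) and IR basal (21.9) through K1030R (13.8 basal, 13.3 with insulin) and ∆CT (12.2 and 11.8) to JMO (6.47 and 6.37) and DKO (3.47). Neighbours in this order that did not differ at an edgeR adjusted p below 0.05 were the basal and insulin groups of each line and the K1030R insulin and ∆CT basal groups. For *Igfbp4* the order was IR basal (12.9) and insulin (11.3), ∆CT basal (8.48) and insulin (8.05), K1030R insulin (7.36) and basal (6.45), JMO insulin (3.61) and basal (2.82), and DKO (2.25). Its neighbours differed from IR with insulin to ∆CT basal (edgeR adjusted p = 0.00568) and from K1030R basal to JMO with insulin (1.15e-05), and at no other step. For *Igfbp7*, JMO with insulin (249 CPM), JMO basal (242), and DKO (224) were followed by K1030R basal (112) and insulin (107) and by ∆CT basal (80.5), IR basal (75.2), ∆CT with insulin (71.9), and IR with insulin (68.9). The steps from DKO to K1030R basal and from K1030R with insulin to ∆CT basal passed (edgeR adjusted p = 1.08e-15 and 6.81e-06), and the others did not. In the order of *Igfbp6*, from 143 CPM in IR basal to 104 in JMO with insulin, the step from DKO to K1030R with insulin (adjusted p = 0.0435) was the one that passed.

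To compare different genes, CPM were divided by the kilobases of exon of each gene. In DKO cells *Igfbp7* had 186 ± 5.96 CPM per kilobase (SD, n = 3) and *Igfbp6* 117 ± 2.6, whereas *Igfbp4* had 0.51 ± 0.068 and *Igf1* 0.35 ± 0.00977. In IR cells the levels were 62.2 ± 2.86 for *Igfbp7*, 128 ± 9.21 for *Igfbp6*, 2.93 ± 0.346 for *Igfbp4*, and 2.21 ± 0.116 for *Igf1*. The more abundant of the pair *Igfbp6* and *Igfbp7* thus changed with the line: the level of *Igfbp7* per kilobase was 1.59 times that of *Igfbp6* for DKO and 2.04 times for JMO cells, but 0.486 for IR, 0.891 for K1030R, and 0.629 for ∆CT cells. Even in IR cells *Igf1* and *Igfbp4* remained far below both.

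Put together, a gene was placed in an intracellular-domain pattern where IR, K1030R, and ∆CT cells were each called the same way against both DKO and JMO cells. *Igf1* and *Igfbp4* were in the high pattern, which held 0.305% of all tested genes, and *Igfbp7* in the low pattern, which held 1.03%. *Igfbp6* was in neither. The same placement was found by edgeR with the insulin libraries of the receptor lines. These were set against basal DKO libraries, since DKO cells were collected without insulin only, so receptor and insulin differ together there. The share of all genes in the patterns with insulin is not given here. In the basal set, *Igf1* was not in the pattern with DESeq2, with limma, and in edgeR without JMO basal replicate 1, because its difference between JMO and ∆CT was not called. With insulin, neither *Igf1* nor *Igfbp4* was in it with DESeq2 or limma, which did not call *Igf1* between JMO and ∆CT or *Igfbp4* between JMO and K1030R, and where edgeR lost either of these calls with 1 insulin library left out, as given above, that gene left the pattern too. No member shared 1 direction of call over all 4 receptor lines, except *Igf1* with no minimum fold or without JMO basal replicate 1. Of all genes, 0.61% shared the high and 0.273% the low direction, leaving out those counted apart. With no minimum fold, *Igf1* was among the genes counted apart.

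Across the 9 group means on the log2 scale, *Igf1* and *Igfbp4* had a Pearson correlation of 0.96, *Igf1* and *Igfbp7* of -0.87, and *Igfbp4* and *Igfbp7* of -0.95, as a description of groups that share cell lines. Among 2524 tested genes whose group means spanned at least 1 on the log2 scale, the 3 most like *Igf1* were *Slc4a4*, a bicarbonate cotransporter (r = 0.994), *Pid1* (0.992), and *Aspn*, a small matrix proteoglycan (0.991). Most like *Igfbp4* were the forkhead factor *Foxc1* (0.996), *A730020E08Rik* (0.992), and *Gper1*, a membrane receptor for estrogen (0.989), although none of them was among its first 3 over the 26 single libraries. Most like *Igfbp7* were *Gch1*, which makes the first step of tetrahydrobiopterin synthesis (0.989), *Sod3*, an extracellular superoxide dismutase (0.989), and the chemokine *Cxcl5* (0.989). For *Igfbp6*, which itself spanned 0.45, they were the membrane-bound metalloproteinase *Mmp14* (0.952), the adenosine receptor *Adora2b* (0.93), and *Crabp2*, a carrier of retinoic acid (0.918). Over the 26 single libraries, *Pid1*, *Gch1*, and *Crabp2* were not among the first 3 of their member either.

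The genes around IGF1 and its binding proteins were taken from a list of 34, of which 26 were tested: ligands, receptors, other binding proteins, proteases that cut them, inhibitors of these proteases, and the growth hormone axis that drives *Igf1* in liver. Against DKO, 3 of 26 were called higher and 4 lower for IR, 3 and 3 for K1030R, 3 and 5 for ∆CT, and 3 and 0 for JMO cells, where 3.6% and 3.29%, 2.04% and 3.25%, 2.38% and 3.91%, and 1.38% and 0.734% of all tested genes were called higher and lower. The median log2 fold change over the 26 was -0.03 for IR, -0.08 for K1030R, -0.15 for ∆CT, and 0.10 for JMO cells, and that of all tested genes lay between 0.00749 and 0.0138. The 3 higher genes were *Insr*, *Igf2r*, and *Pappa2* in every line. The lower genes were *Igf2*, *C1ra*, *Pappa*, and *Timp1* for IR, *Igf2*, *C1s1*, and *C1ra* for K1030R, and *Igf2*, *C1s1*, *C1ra*, *Pappa*, and *Stc1* for ∆CT cells, of which *Timp1* and *Stc1* are named after their values were seen. *Igf2* passed the filter on low counts only through DKO and JMO libraries, so its place among the lower genes is not independent of that filter.

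Of the ligands, *Igf2*, a second growth factor that the binding proteins hold, had a mean of 0.717 ± 0.0574 CPM (SD, n = 3) for DKO and 0.862 ± 0.278 for JMO cells, against 0.145 ± 0.132 for IR, 0.0671 ± 0.116 for K1030R, and 0.0661 ± 0.0574 for ∆CT cells. The direction was opposite to that of *Igf1*, at a level that rested on 43.8 counts over the 3 DKO libraries and 9 or fewer over those of IR, K1030R, or ∆CT. It was called lower than DKO in these 3 lines (edgeR adjusted p = 0.00159, 0.000263, and 0.000146) and higher in JMO cells than in each of them. Every DKO and JMO library had at least 0.562 CPM of *Igf2*, and no IR, K1030R, or ∆CT library had more than 0.296. The gene thus reached the tests only through the groups in which it was high, and these calls are not independent of the filter. Of the receptors, *Igf2r*, which takes up IGF2 and sorts lysosomal enzymes, rose from 17.7 ± 1.38 CPM for DKO to 60.8 ± 0.796 for IR, 53.7 ± 1.18 for K1030R, 52.7 ± 4.57 for ∆CT, and 40.6 ± 0.315 for JMO cells (log2 fold changes 1.78, 1.60, 1.57, and 1.20, each ± 0.06 SE, all with edgeR adjusted p of 4.66e-17 or smaller). *Insr* had 23.8 ± 1.32 CPM in DKO cells, in which the gene was deleted, and means of 67.7 to 78.4 in the basal receptor lines. It was counted on mouse sequence although the receptors brought in are human, and the part of human receptor reads in its count was not tested. *Igf1r* was at 24.7 to 28.6 CPM in DKO libraries and had means of 30.1 to 35.1 in the receptor lines, not called at 1.5-fold in any. No library of cells with both receptors intact was analysed here, so the deletions could not be checked by these levels. The paper itself reports that DKO cells had neither receptor, as mRNA by qPCR or as protein by immunoblot.

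Of the proteases, *Pappa2*, whose product cuts IGFBP3 and IGFBP5, rose from 11.2 ± 0.657 CPM for DKO to 61.1 ± 0.678 for IR, 47.7 ± 2.15 for K1030R, 52.7 ± 1.99 for ∆CT, and 38.9 ± 1.4 for JMO cells, with log2 fold changes of 2.45, 2.09, 2.23, and 1.80. *Pappa*, the gene of the IGFBP4 protease, moved the other way, from 3.02 ± 0.126 CPM in DKO to 1.17 ± 0.0772 in IR and 0.973 ± 0.149 in ∆CT cells, where it was called (log2 fold changes -1.36 ± 0.21 and -1.63 ± 0.22 SE), and it was at 1.5 ± 0.306 in K1030R and 1.77 ± 0.177 in JMO cells, where it was not called at 1.5-fold. *C1ra* and *C1s1*, the proteases that start the classical complement pathway, had means of 182 and 157 CPM for DKO and 239 and 231 for JMO cells, against 106 and 92.9 for IR, 78.2 and 69.5 for K1030R, and 68.3 and 60.4 for ∆CT cells. Both were called higher in JMO than in each of the other 3 lines, by log2 fold changes of 1.17 and 1.31 over IR. *Igfbp1*, the member of the family known from liver, had 0 counts in all libraries, and *Igfals*, which forms the blood complex with IGFBP3, was at most 0.112 CPM.

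**Figure D5:**
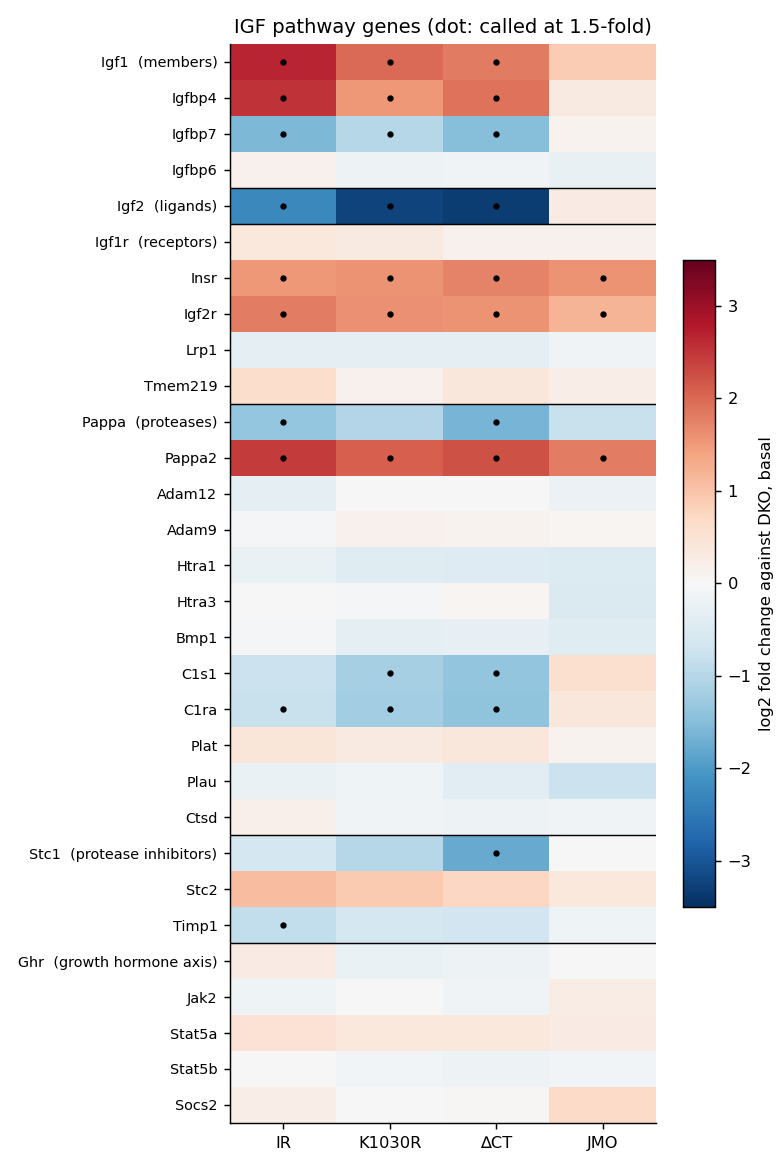
Log2 fold change against DKO in the basal state (colour scale from -3.5 to 3.5) of the 4 tested members and the 26 tested genes of the list, by line, with a dot where the 1.5-fold test was passed. *Igf1*, *Igfbp4*, and *Igfbp7* carry dots in IR, K1030R, and ∆CT and none in JMO cells, whereas *Insr*, *Igf2r*, and *Pappa2* carry dots in all 4 lines.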

How the data were processed

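RNA of 26 libraries in 9 groups was analysed; groups and replicate numbers were taken from the sample labels. Oligo-dT beads were used to select poly(A) RNA for stranded, single-end libraries. The authors trimmed reads (fastp), quantified Ensembl mouse transcripts (kallisto), and collapsed these to genes (tximport; tool versions are not given in the sources used here). The deposited values are these expected counts, unfiltered and unscaled, and 79.9% are exactly whole. Because reads were assigned by transcript, genes that share sequence divide reads by estimate.

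Counts were rounded and analysed with edgeR 4.0.16 (R 4.3.3), with TMM scaling, a filter (over 0.5 CPM in 4 or more libraries), and 1 robust quasi-likelihood model with 1 mean per group over all libraries. Calls used glmTreat at 1.5-fold and Benjamini-Hochberg adjusted p below 0.05 over 15402 genes. Single values carry the adjusted p of the quasi-likelihood test. Log2 CPM for correlations used a prior count of 2. At these totals, 0.5 CPM is about 10 counts. Nothing in the labels says that replicates are separate cultures, so p-values measure the spread between samples, which may be technical. Replicates varied beyond counting error (chi-square per degree of freedom 2.76 to 21.2 over 25 pairs).

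Named genes were all members, list genes called in at least 2 receptor lines against DKO, *Igfbp1*, *Igf2*, *Igf1r*, *Insr*, and *Igfals*, and the 3 genes most like each tested member. The members and gene lists were chosen with earlier results of these data known. A gene of the pathway list is not reported here and is left out of its counts. Coordinates and exon lengths are from GENCODE on GRCm38. Alternatives were RLE scaling, no filter, a filter of 10 counts in 4 libraries, counts left unrounded, TREAT in limma 3.58.1, DESeq2 1.42.0, the compared groups alone, a replicate block, no minimum fold, insulin libraries in place of basal ones, and each library left out. The procedure was tested on simulated data. The proteomic and phosphoproteomic data of the study were not used here.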

Additional observations from a re-analysis of the deposited data

Results flagged for a closer look

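A gene of the wider list that is not a member, *Insr*, differed between lines in its response to insulin, as tested by a contrast of the insulin effects in edgeR's quasi-likelihood test. It was counted on mouse sequence in cells that carry human receptors. Its group means without and with insulin were 67.7 and 87.5 CPM for IR and 78.4 and 98.1 for ∆CT cells. For K1030R cells they were 71.1 and 68.2, and for JMO cells 71.0 and 75.3. Relative to the insulin effect in IR cells, the log2 difference was -0.43 ± 0.06 SE in K1030R (adjusted p = 6.61e-05) and -0.29 ± 0.06 in JMO cells (adjusted p = 0.0294). None of the 4 tested members passed this test.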

How the results depend on the processing

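Apart from the calls at 1.5-fold named with the results, the counts of called members were within 1.5 times of those reported under every alternative with a minimum fold. With no minimum fold they rose from 9 to 14 against DKO and from 10 to 18 between lines. Between lines with insulin they rose from 10 to 20. Each comparison held 4 tested members. The rise was not limited to the members, as basal shares of all genes rose too. Against DKO these went from 6.89% to 49.8% for IR and from 5.29% to 41.6% for K1030R cells. For ∆CT and JMO cells they went from 6.29% to 46.3% and from 2.11% to 34.3%. Against IR they went from 1.04% to 30.2% for K1030R, 0.708% to 26.1% for ∆CT, and 4.59% to 42.4% for JMO. Other shares with no minimum fold are not given here. With 1 library left out the counts of called members ran from 9 to 10, from 9 to 11, and from 8 to 11. The count of members with 1 direction of call over all 4 receptor lines was 1 with no minimum fold and ran from 0 to 1 with 1 library left out. Of the 3 genes most like *Igfbp4*, 0 were also found over the 26 libraries. Nor were *Pid1* for *Igf1*, *Gch1* for *Igfbp7*, and *Crabp2* for *Igfbp6*. Dividing by the longest transcript gave *Igf1* 0.492 CPM per kilobase in DKO and 3.11 in IR cells and *Igfbp4* 0.588 and 3.37. Values near 0 changed sign: the *Igf1* insulin effect in JMO cells was 0.0025 with limma. With 1 library left out it ran from -0.106 to 0.0911, and in K1030R cells from -0.124 to 0.0117, the *Igfbp6* difference between ∆CT and K1030R from -0.0127 to 0.082, its insulin effect in ∆CT from -0.0794 to 0.0154, and the *Igfbp7* insulin effect in ∆CT minus IR from -0.0823 to 0.0271. Over all single values, other settings gave 726 on the same side of the threshold, 5 newly past it, 4 no longer past it, and 1 of opposite sign, and leaving out 1 library gave 2342, 10, 31, and 9. Most of those that crossed were *Igfbp6* differences. Without one ∆CT insulin library, the other is assumed to vary like the other groups.

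Libraries with the same replicate number did not on the whole deviate together (median correlation of residuals -0.00111 in 100 pairs, and -0.00162 in 200 pairs with unlike numbers), so the number was not used as a pairing. A median over all pairs could hide pairing within single lines, which was not examined. With the replicate block, 9 calls against DKO were made as before, and the *Igfbp6* difference between JMO and ∆CT cells passed (-0.12, adjusted p = 0.0475), as the single change among the members. At 0.5 CPM about 10 counts are at hand, which limits *Igfbp2*, *Igfbp3*, *Igfbp5*, and *Igf2*.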
